A study of Saccharomyces cerevisiae with 20 samples.

Results

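The early parting of histone mutants by cell density was followed in 6 barcode libraries, taken from quiescent and non-quiescent cells at days 1, 2 and 3 of 1 ageing culture of Saccharomyces cerevisiae. These were 6 of the 20 libraries of the series, and they were chosen by fraction and day alone, with each quiescent library paired with the non-quiescent library of its day. The quiescent group was 3 libraries of the dense cells and the non-quiescent group was 3 libraries of the light cells. Every strain of the pool derived from JDY86, a MATa strain with his3, leu2, trp1, ura3 and met15 markers and can1::MFA1pr-HIS3, in which the hht1-hhf1 gene pair is replaced by NatMX4 and hht2-hhf2 carries the designed H3 or H4 gene beside URA3. Both fractions therefore share these alleles, and each mutant has 1 source of H3 and H4. The pool grew in YPD at 30°C with shaking, and the fractions of a day came from 1 aliquot spun on a Percoll gradient. Each strain is 1 clone in 1 culture, so that days, which are serial samples, stand in for replicates, and the p-values measure only the scatter between these days.

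A yeast culture that runs out of glucose divides its cells between these fractions. Quiescent cells are mostly unbudded daughters that have stored glycogen and trehalose, have thickened their walls and survive for weeks, whereas non-quiescent cells are lighter, lose viability sooner and re-enter growth poorly. Histones H3 and H4 form the core of the nucleosome, and their N-terminal tails carry most of the sites that are acetylated, methylated or phosphorylated. The tail of H3 bears K4, the target of the Set1 complex, and K14, a main target of Gcn5. The tail of H4 bears K5, K8, K12 and K16, where deacetylation of K16 lets Sir3 bind.

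A strain is read through its up and its down barcode, each 20 bases long, and the sum of both counts was its count. The barcodes of 6 strains with large differences are shown, in lower case throughout because no base has a role beyond identity, up barcode first and down barcode second.
H3[del 1-4] up: cactggatgtcatgtgcgct
H3[del 1-4] down: gacatctcccaacaggtata
H3R2A up: aggcatactacacagattcc
H3R2A down: ctctcgacgtaggacttcgt
H4K59Q up: gtagctccgatcactttctg
H4K59Q down: catactctagtgcattgcct
H3K14Q up: ggccctaatctaaagccaga
H3K14Q down: gcgaccctataattcttgac
H3K79Q up: gccggacctataatctaatc
H3K79Q down: gaccgtagactgttctgaat
H4I21A up: gcccgctaacgaaagggtaa
H4I21A down: gtttgggcacaacacacaca

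Of 422 named strains, 347 averaged 10 counts or more over all 20 libraries and were kept. They were the wild type, 297 single substitutions, 46 deletions and 3 multiple mutants. The 6 libraries held 153369 to 180040 counts, with a median of 272 to 345 per kept strain, and 346 of the 347 strains had a count in all 6. Barcode pairs with no strain name took 10.6% to 15.2% of the counts. No gene is measured here, so that the labelled fractions cannot be set against marker genes.

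The level of a strain is its log2 count less that of the median kept strain of the library, and its difference is the quiescent minus the non-quiescent level of a day. A positive difference means a larger share of the quiescent than of the non-quiescent pool, and whether more cells were dense or fewer were light cannot be told apart. Up and down barcodes ranked the mean differences of the 347 strains alike (Spearman's rho = 0.92, a description across strains). More abundant strains tended to lower differences, with a rho of -0.29 between the mean difference and the mean level in the 6 libraries. With the mean level at day 0 it was -0.06. The cause was not tested.

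Days 2 and 3 parted the strains in nearly the same way, and day 1 did so less closely. The differences had a Spearman's rho of 0.89 between days 2 and 3, against 0.30 between days 1 and 2 and 0.27 between days 1 and 3, all across 347 strains that share the culture. The sign was shared by 302 strains between days 2 and 3, by 218 between days 1 and 2, and by 190 of 347 (54.8%) on all 3 days. The spread across strains was 0.38 at day 0, 0.66 at day 1, 0.81 at day 2 and 0.83 at day 3 (SD, log2 scale).

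Day 5 went against its labels. Its differences ran opposite to those of day 3 (rho = -0.80), and 288 of 347 strains had the other sign. The levels of the quiescent library of day 5 correlated most closely with the non-quiescent library of day 3 (r = 0.974, against 0.908 with the quiescent one), and those of the non-quiescent library of day 5 with the quiescent library of day 3 (r = 0.984, against 0.896 with the non-quiescent one). Whether the labels of day 5 were exchanged was not tested. The reported tests leave that day out, and it enters only the mean count by which strains were kept and the alternative fit over all 20 libraries. Day 7 ran the same way as days 1, 2 and 3 (rho = 0.48, 0.31 and 0.31).

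**Figure D1:**
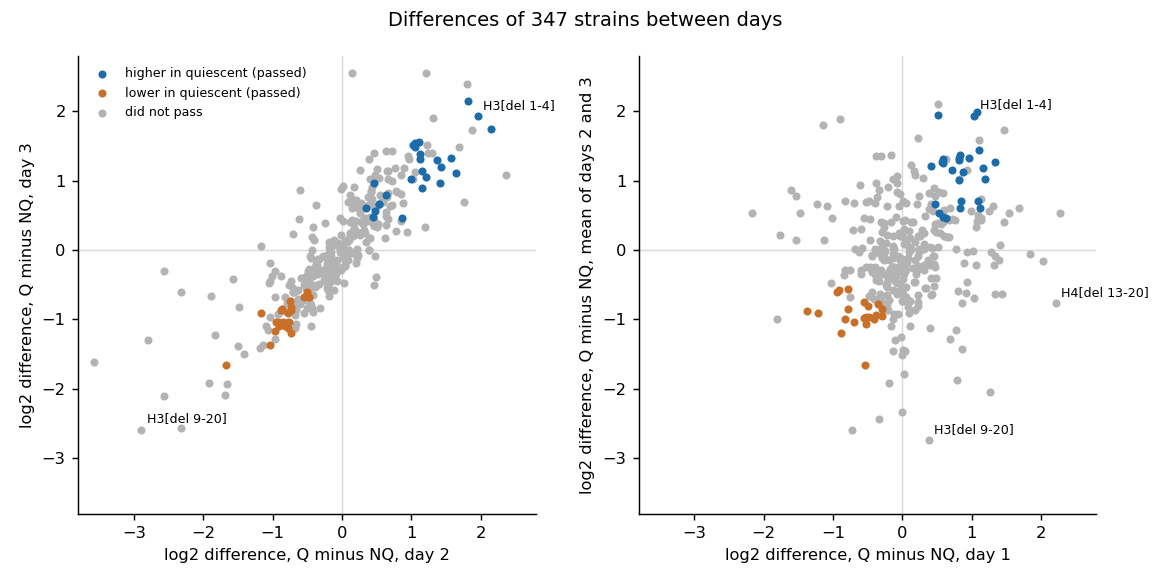
Each point is 1 of 347 strains, with the log2 difference (quiescent minus non-quiescent) of day 2 against day 3 on the left and of day 1 against the mean of days 2 and 3 on the right. Blue and orange points are the 26 strains that were higher and the 21 that were lower in the quiescent fraction by edgeR's test. The left cloud is narrow and the right cloud is wide.

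Over the 3 days 47 of 347 strains (13.5%) passed edgeR's quasi-likelihood test with day as a block (adjusted p under 0.05, Benjamini-Hochberg). Of these, 26 (7.49%) were higher and 21 (6.05%) were lower in the quiescent fraction. All 47 had 1 sign on the 3 days, against 190 of all 347 strains. Their up and down barcodes gave the same sign of the mean, against 319 of 347. On each day their exact 95% counting interval lay beyond 0. The test used these same days and counts and favours such strains, so that this agreement is no independent support. The intervals cover counting error only, since the reads carry no molecular identifiers.

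This count rests on few days and lies near the threshold, with adjusted p between 0.0165 and 0.0495. With TMM factors in place of the median strain 13 strains passed, without day 1 there were 201, without day 2 there were 0, and hence 0 in every list (47 at an unadjusted p under 0.05), and without day 3 there were 13. Without the block of day 97 passed, and limma on the 3 differences called 0, with 111 at an unadjusted p under 0.05. Scaling also moved the balance: higher strains were 55.3% of those called with the median strain, 75.8% with library totals and 88.7% with the wild type as the reference, which raised all differences by 0.14 and 0.25. Both shifts are upward, so that a list median between -0.25 and 0 can turn positive with them. An exact sign-flip test over 3 days cannot go below p = 0.25 and was not used.

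Among the strains that passed, the 3 with the highest mean differences, H3R2A, H3[del 1-4] and H3K4A, were altered at the extreme tip of H3. H3S57D had 1.64 ± 0.66 and H4Y88F had 1.43 ± 0.30, and neither passed (adjusted p = 0.0575 and 0.066). H3[del 1-4], which lacks the first residues of the tail including K4, had 550, 564 and 526 counts in the quiescent libraries of days 1, 2 and 3, against 242, 148 and 112 counts in the non-quiescent libraries. All 3 quiescent values lay above all 3 non-quiescent ones. Its mean difference was 1.64 ± 0.52 (SD, n = 3 days), a 3.12-fold ratio, with adjusted p = 0.0165 by edgeR. The level in the quiescent libraries lay between 0.65 and 0.84, whereas in the non-quiescent libraries it was -0.37 at day 1 and -1.28 at day 3.

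**Figure D2:**
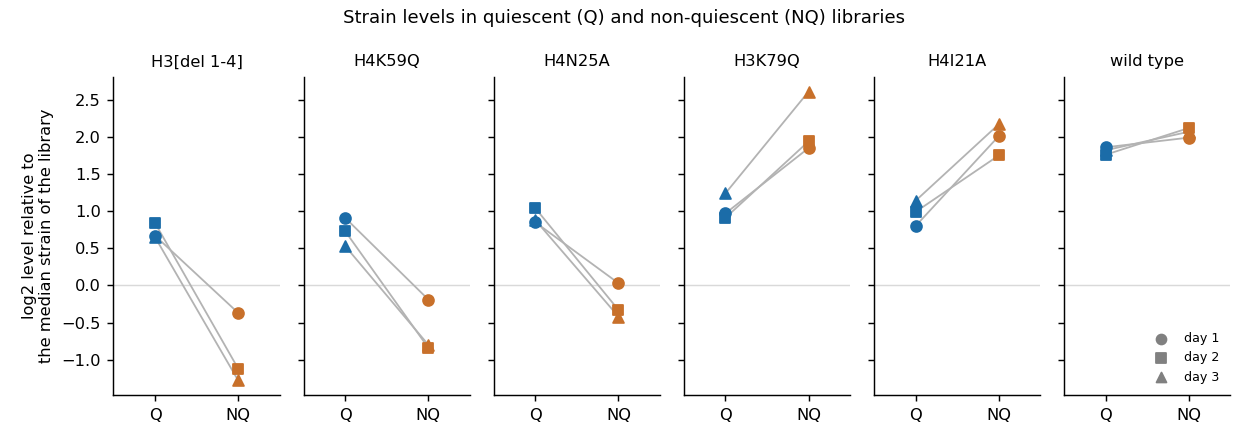
Each panel gives the level of a strain (log2 relative to the median strain of the library) in the quiescent (Q, left) and non-quiescent (NQ, right) library of days 1, 2 and 3, with lines joining the fractions of a day. H3[del 1-4], H4K59Q and H4N25A sit higher in every quiescent library, H3K79Q and H4I21A lower, and the wild type differs little.

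Substitutions at the same residues did likewise. H3R2A, at the arginine beside K4 whose methylation opposes that of K4, had 86, 83 and 88 counts in the quiescent libraries and 37, 24 and 16 counts in the non-quiescent ones. It had the highest mean difference of all strains, 1.68 ± 0.55, with adjusted p = 0.0491, although at these counts the 95% counting interval of day 1 ran from 0.50 to 1.67. H3K4A had 170, 191 and 195 counts in the quiescent libraries, against 108, 44 and 47 counts in the non-quiescent ones, and its mean difference was 1.47 ± 0.85 (adjusted p = 0.0495). Neither strain's groups overlapped, although the difference of H3K4A was 0.51 at day 1 against 2.15 at day 2.

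H3T3, which is phosphorylated in mitosis in other eukaryotes, gave a mean difference of 1.21 ± 0.31 when changed to aspartate and 1.07 ± 0.44 when changed to alanine, with adjusted p = 0.0181 and 0.0324. H3A1S also passed, with 0.96 ± 0.47 (adjusted p = 0.0394). The remaining strains of residues 1 to 4 did not pass, with 1.57 ± 0.97 for H3K4Q, 0.82 ± 0.59 for H3K4R and 0.54 ± 0.68 for H3R2K. Thus 6 of the 9 strains were higher and 9 of 9 had a mean above 0, against 7.49% higher over all strains. The group was drawn after its values were seen. Without day 1 all 9 of 9 passed, against 26.5% of all strains, while 2 of 9 passed with TMM factors and 3 of 9 without day 3.

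Next along the tail the deletion H3[del 5-8] was higher as well, with a mean difference of 0.77 ± 0.31 (adjusted p = 0.0491). Of the 51 substitutions at residues 5 to 32, a stretch set after the values were seen, 0 were higher and 5 (9.8%) were lower. Over all strains 7.49% were higher and 6.05% lower. In this stretch 42 means lay below 0, against 180 of all 347 strains, with a median of -0.33. Among the means above 0 were those of H3R8A (0.33) and H3S28A (0.31), which did not pass. The lower count was 0 with TMM factors, library totals or the wild type as the reference, and 1 without day 3. Without day 1 it was 31 (60.8%, against 31.4% of all strains). H3K14Q, which mimics acetylation at the main Gcn5 site, had 172, 99 and 114 counts in the quiescent libraries, against 227, 321 and 289 counts in the non-quiescent ones. The groups did not overlap, and the mean difference was -1.29 ± 0.65 (adjusted p = 0.0387), which is 2.44-fold lower in the quiescent fraction. H3K14R lay at -1.34 ± 1.00 and H3K14A at -0.70 ± 0.70, neither of which passed. All 3 had smaller differences at day 1 (-0.54, -0.19 and 0.11 for Q, R and A) and differences under -1 at days 2 and 3.

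Other lower strains of this stretch were H3T11D (-0.70 ± 0.19), H3S22D (-0.63 ± 0.14), H3A25S (-0.72 ± 0.20) and H3K27Q (-0.69 ± 0.22). H3T11A lay at -0.11 ± 0.18 and did not pass. H3[del 13-16], which removes K14, had 199, 163 and 242 counts in the quiescent libraries, against 294, 373 and 369 counts in the non-quiescent ones, and fell by 0.93 ± 0.23 (adjusted p = 0.0324).

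Deletions in the H3 tail had mostly positive differences at day 1 and negative ones at days 2 and 3. Of 31 kept H3 deletions 24 had a difference above 0 at day 1, but 28 were below 0 at day 2 and 26 at day 3, with medians of 0.40, -1.05 and -0.47 in that order. Among all 347 strains 180 were above 0 at day 1 and 186 were below 0 at day 2. H3[del 9-20] had 33, 18 and 15 counts in the quiescent libraries, against 23, 136 and 73 counts in the non-quiescent ones. Its differences were 0.38, -2.89 and -2.59, and with a mean of -1.70 ± 1.81 it did not pass. Over the 3 days 2 of the 31 (6.45%) were higher, 1 (3.23%) was lower and 28 did not pass, shares below the 7.49% and 6.05% over all strains. The lower count was 15 (48.4%, against 31.4% of all strains) without day 1 and 0 without day 3. H3K4,9,14,18R, in which 4 tail lysines are arginine, had the lowest mean of all strains, -1.97 ± 1.46, and did not pass (adjusted p = 0.0781).

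The outer part of the H4 tail lay lower in the quiescent fraction in most strains. H4K5R had 1453, 1338 and 1704 counts in the quiescent libraries, against 2278, 2467 and 2485 counts in the non-quiescent ones, and its 3 differences spanned only -0.79 to -0.86. It fell by 0.83 ± 0.04 (SD, n = 3 days, adjusted p = 0.0211). H4K8R had 1079, 828 and 1022 counts in the quiescent libraries and 1417, 1658 and 1852 counts in the non-quiescent ones, a mean of -0.89 ± 0.32 (adjusted p = 0.0324). For both strains the groups did not overlap.

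Glycines of the outer H4 tail, changed to alanine, gave the same sign. H4G13A had 489, 423 and 510 counts in the quiescent libraries, against 648, 818 and 843 counts in the non-quiescent ones, with a mean of -0.83 ± 0.25 (adjusted p = 0.0252). H4G2A, H4G4A, H4G7A and H4G11A also fell, with means between -0.80 and -0.68. In all, 5 of 8 tail glycine strains were lower (62.5%, against 6.05% of all strains). On all 3 days 8 of 8 were below 0, against 98 of all 347 strains. Over residues 1 to 15 of H4, 7 of 23 substitutions (30.4%, against 6.05% of all strains) were lower, 0 were higher and 19 had a mean below 0, with a median of -0.61 against -0.03 over all strains. Both stretches were picked after the values were seen, and the lower count of residues 1 to 15 was 2 with TMM factors, 1 when scaled to the wild type, 0 without day 3 and 18 without day 1 (78.3%, against 31.4% of all strains). For the glycines it was 1, 1, 0 and 7 of 8 under these settings.

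The basic patch is residues 16 to 20, the stretch of the H4 tail that meets Sir3 or the acidic patch of a neighbouring nucleosome. None of its 12 strains passed (0 higher and 0 lower), against 13.5% of all strains. On all 3 days 0 of 12 were above 0 and 2 were below 0, against 92 and 98 of all 347 strains. The mean was above 0 in 8 of 12, with medians of 0.32, 0.03 and -0.18 on days 1, 2 and 3. H4K16R and H4K16Q had differences of -0.02 and 0.18 at day 1 and between -1.37 and -0.86 at days 2 and 3, while H4K16A had 1.06, -0.43 and 0.00. H4H18A and H4H18Q had 1.32 and 1.28 at day 1 and between -0.47 and 0.03 afterwards. Past the patch H4I21A fell by 1.00 ± 0.22 (adjusted p = 0.0165), with 602, 625 and 738 counts in the quiescent libraries and 1261, 1079 and 1221 counts in the non-quiescent ones.

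H4N25A, at a residue that also touches Sir3, moved the other way. It had 621, 646 and 617 counts in the quiescent libraries, against 319, 255 and 203 counts in the non-quiescent ones, with a mean of 1.16 ± 0.30 (adjusted p = 0.0165). It was called under 12 of the 14 other settings, more than any other of the 47 strains. H3[del 1-4] was called under 11 of them, H3R2A and H3K4A under 6 and H3K14Q under 5. The fewest was 4, as for H3T11D and H4[del 9-16]. Over the whole H4 tail 1 of 47 substitutions (2.13%) was higher and 8 (17%) were lower, beside 7.49% and 6.05% of all strains. In the H3 tail 7 of 77 (9.09%) were higher and 5 (6.49%) lower, close to those shares, and the difference between the tails was not tested. With TMM factors 3 strains of the H4 tail and 0 of the H3 tail were lower.

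**Figure D3:**
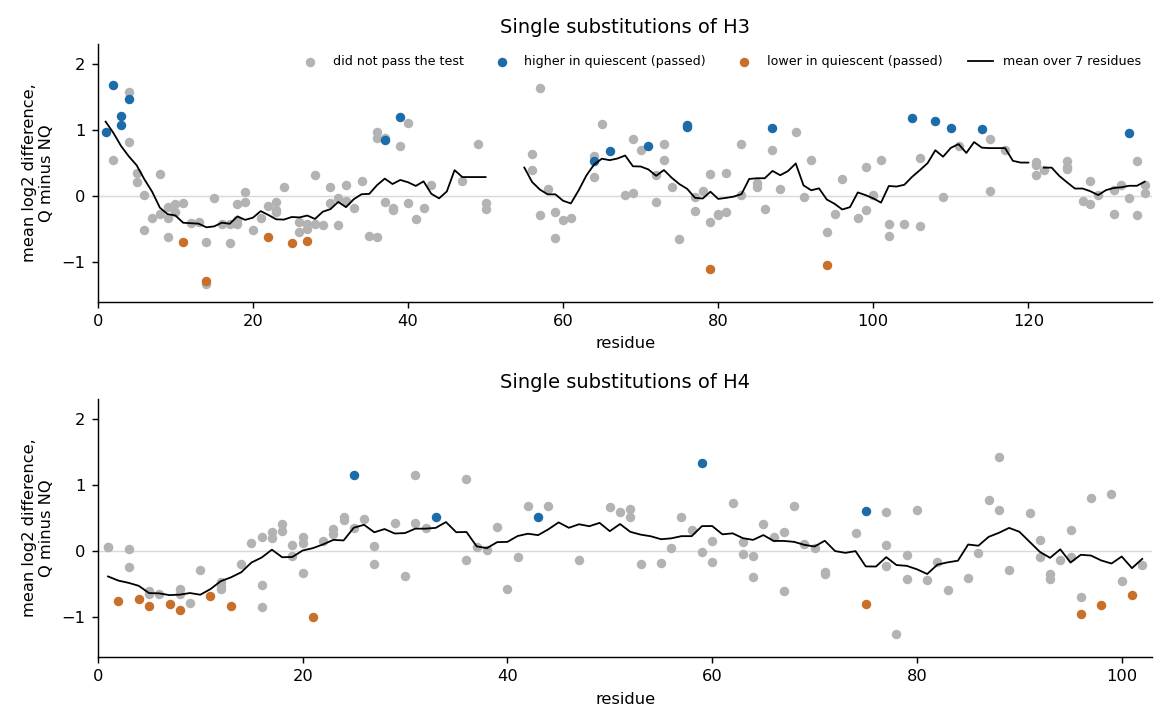
The mean log2 difference of days 1 to 3 (quiescent minus non-quiescent) of each single substitution is plotted against its residue, for H3 above and H4 below. Blue points passed the test as higher, orange points as lower, and the line is a mean over 7 residues. It is above 0 at the tip of H3 and below 0 between about residues 8 and 30 of H3 and over the first 15 residues of H4.

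Strains at the acetylated lysines of both tails lay mostly below 0. Of 27 substitutions at these 9 lysines 26 had a mean below 0, against 180 of all 347 strains, with a median of -0.53, and 4 (14.8%, against 6.05% of all strains) were lower (H3K14Q, H3K27Q, H4K5R and H4K8R) while 0 were higher. At day 1 their median was -0.12, with 18 of 27 below 0, and at days 2 and 3 it was -0.66 and -0.78, with 26 of 27 below 0. The lower count was 23 of 27 (85.2%, against 31.4% of all strains) without day 1, but 1 with TMM factors, 1 without day 3 and 0 with the wild type as the reference or with limma. The exception in sign was H4K16A, with 0.21 ± 0.76.

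Methylated lysines of H3 divided by residue and by the amino acid put in. H3K36, the target of Set2, gave 0.96 ± 0.42 as alanine and 0.87 ± 0.60 as glutamine, against -0.62 ± 0.89 as arginine, and none of these passed. H3K79, the target of Dot1 on the nucleosome face, was lower as glutamine, with 674, 592 and 791 counts in the quiescent libraries, against 1131, 1231 and 1659 counts in the non-quiescent ones. H3K79Q fell by 1.10 ± 0.25 (adjusted p = 0.0165), a level 2.14-fold lower in the quiescent fraction. H3K79R lay at -0.40 ± 0.10 and H3K79A at 0.33 ± 0.77, neither of which passed. Over the 9 strains at K4, K36 and K79 the median was 0.82, with 1 higher and 1 lower (11.1% each). Over all strains 7.49% were higher and 6.05% lower. With TMM factors, library totals or without day 3 the 9 strains had 0 higher and 1 lower. Differences between these strains were not tested.

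Within residues, the uncharged changes at lysines lay above arginine more often than below it. Glutamine lay above arginine at 16 of 21 lysines, with a median difference between them of 0.24, and alanine lay above arginine at 13 of 18, also with a median of 0.24. The widest gaps were 1.58 between H3K36A and H3K36R, 1.49 between H3K36Q and H3K36R and 1.35 between H4K59Q and H4K59R. At arginines lysine lay below alanine at 16 of 19, with a median of -0.37. Aspartate lay below alanine at 12 of 18 serines and threonines (median -0.21), although H3S57D stood 1.93 above H3S57A. These pairs share libraries and carry no test.

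The base of the H3 tail, where it leaves the nucleosome between the DNA gyres, held higher strains among others of either sign. H3H39A had 357, 284 and 210 counts in the quiescent libraries and 182, 93 and 79 counts in the non-quiescent ones, with a mean of 1.19 ± 0.41 (adjusted p = 0.0324). H3K37Q followed with 0.84 ± 0.23 (adjusted p = 0.0369). Of 12 substitutions at residues 36 to 40, a stretch seen in the values first, 2 were higher (16.7%, against 7.49% of all strains) and 0 lower, and 7 had a mean above 0. Over residues 33 to 43 the higher strains were 2 of 18 (11.1%), with 9 means above 0, 9 below and a median of 0.03. Neither strain passed with TMM factors, and 1 of them passed without day 3.

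In the folded part of the histones 15 of the 21 substitutions that passed were higher and 6 were lower, beside 26 and 21 of all 47 strains that passed. That balance moves with the reference. Of all strains called, 88.7% were higher with the wild type as the reference, which raised all differences by 0.25. TMM factors shifted the median strain by 0.00, and 6 of the 13 strains called with them were higher. Whether the folded part leans to 1 side was not tested. H4K59Q, at a lysine of the second H4 helix, had 648, 522 and 486 counts in the quiescent libraries, against 274, 179 and 156 counts in the non-quiescent ones. Its mean was 1.34 ± 0.23, a 2.52-fold ratio (adjusted p = 0.0165). H4K59R lay at -0.02 ± 0.20 (adjusted p = 0.942).

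The first helix of H3 gave 5 higher strains of 20 (25%, against 7.49% of all strains) and 0 lower, with a median of 0.53, although 1 of 20 passed with TMM factors and 1 of 20 without day 3. They were H3Q76E (1.08 ± 0.16), H3Q76A (1.04 ± 0.17), H3V71A (0.75 ± 0.27), H3P66A (0.68 ± 0.15) and H3K64R (0.53 ± 0.05). The second helix gave 5 higher of 29 (17.2%), 4 of them at residues 105 to 114, and 0 with TMM factors or without day 3. H3E105Q had 215, 142 and 140 counts in the quiescent libraries and 87, 54 and 58 counts in the non-quiescent ones, with 1.18 ± 0.23 (adjusted p = 0.0387). H3N108A (1.14 ± 0.37), H3A110S (1.03 ± 0.47), H3A114S (1.01 ± 0.25) and H3S87D (1.03 ± 0.41) were the others. The lower strain of that helix was H3E94Q, with 381, 487 and 582 counts in the quiescent libraries, against 892, 914 and 862 counts in the non-quiescent ones. H3E94Q fell by 1.04 ± 0.28 (adjusted p = 0.0165).

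**Figure D4:**
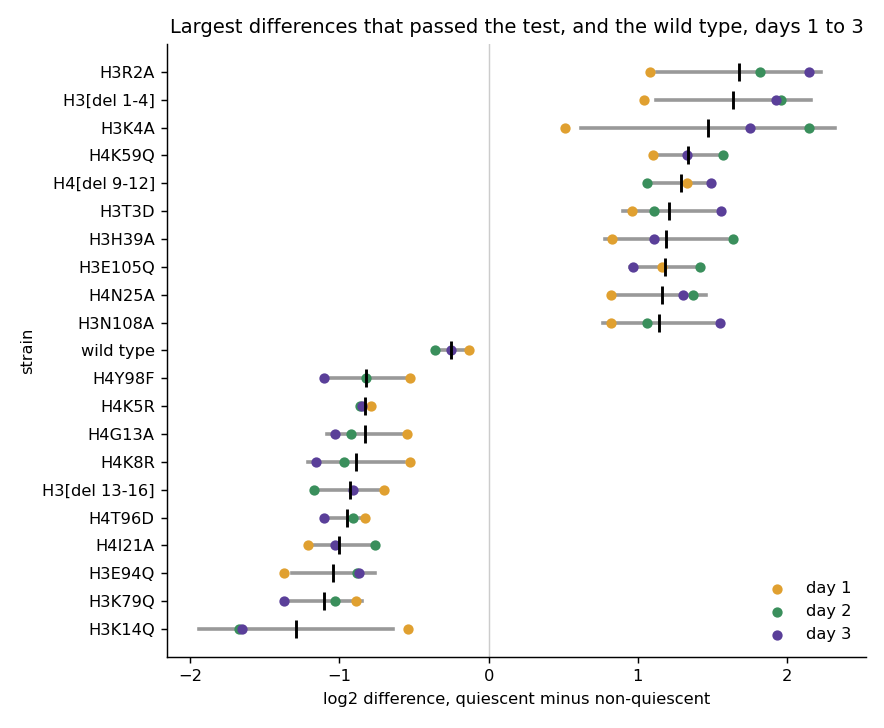
Points give the log2 difference (quiescent minus non-quiescent) on days 1, 2 and 3 for the 10 highest and 10 lowest strains that passed and for the wild type. The black tick is the mean and the grey bar 1 SD over the 3 days. The wild type lies at -0.25 ± 0.11.

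At SIN positions, where other changes are known to let genes be switched on without Swi/Snf, the kept strains were H3E105Q and H4V43A. Both were higher, H4V43A by 0.51 ± 0.14 (adjusted p = 0.0495), and neither passed with TMM factors or without day 3. Of 25 strains on the LRS surface, which is needed for silencing at the rDNA and telomeres, 2 were higher (8%, H3Q76E and H3Q76A) and 1 lower (4%, H3K79Q), close to the shares over all strains (7.49% and 6.05%). Hydrophobic fold residues changed to alanine had 22 of 26 means above 0 and a median of 0.42. Of the 26, 2 were higher (7.69%, H3V71A and H4V43A), close to the 7.49% over all strains, and 0 were lower, against 6.05%. Of 21 modified core lysines 2 (9.52%) were higher and 1 (4.76%) lower, with a median of 0.39.

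The end of H4 held 3 lower strains of 11 (27.3%, against 6.05% of all strains) and 0 higher, with 1 of 11 lower under TMM factors, library totals, the wild type as the reference or without day 3. H4T96D had 411, 343 and 423 counts in the quiescent libraries, against 665, 655 and 735 counts in the non-quiescent ones, with a mean of -0.95 ± 0.14 (adjusted p = 0.0165). H4Y98F fell by 0.82 ± 0.29 and H4G101A by 0.66 ± 0.32. H4T96A lay at -0.70 and did not pass.

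Neighbouring changes could differ in sign. H4[del 9-12] was higher, with 253, 200 and 246 counts in the quiescent libraries and 91, 98 and 71 counts in the non-quiescent ones (1.29 ± 0.22, adjusted p = 0.0211). H4[del 9-16], which extends it through K16, was lower (-0.64 ± 0.25, adjusted p = 0.0491). At H4H75 glutamine was higher (0.60 ± 0.23) and alanine lower (-0.80 ± 0.36). The difference between the strains of each pair was not tested.

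The other lists held few calls, to be read beside 7.49% higher and 6.05% lower over all strains. Among H3 segments the counts of higher and lower strains were 0 and 0 of 13 in the alpha-N helix and its coil, 0 and 1 of 10 in the first loop, 0 and 0 of 3 in the second loop, and 1 (H3E133Q) and 0 of 20 in the third helix and C-terminus. Among H4 segments they were 1 (H4A33S) and 0 of 12 in the first helix, 1 (H4V43A) and 0 of 4 in the first loop, 2 (H4K59Q and H4H75Q) and 1 (H4H75A) of 30 in the second helix, 0 and 0 of 8 in the second loop, and 0 and 0 of 13 in the third helix. Phosphorylated tail residues had 2 higher (20%) and 1 lower (10%) of 10, and alanines changed to serine 4 (19%) and 1 (4.76%) of 21. With TMM factors the first of these lists had 1 higher and 0 lower, and without day 3 it had 2 and 0. The alanine to serine list had 0 and 0 under both settings. Minor-groove arginines had 0 and 0 of 3, and deletions of the H4 tail 1 and 1 of 15.

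Lists that the study drew from these samples are no independent evidence of a direction. Contacts of Sir3 held 1 higher strain (H4N25A, 10%) and 0 lower of 10, and fold edges 4 higher (22.2%) and 1 lower (5.56%) of 18. Over all strains 7.49% were higher and 6.05% lower. With TMM factors 1 of the 18 fold edge strains was higher and 0 were lower, and without day 3 these counts were also 1 and 0. None of the 4 strains at buried residues passed, and their medians were -1.53 at day 1, -0.10 at day 2 and 0.67 at day 3. H3Q68A, 1 of them, had 26, 38 and 81 counts in the quiescent libraries, against 68, 21 and 41 counts in the non-quiescent ones, so that its groups overlapped. H3E50A and H3E50Q lay at -0.11 ± 0.51 and -0.20 ± 0.56. H3K56Q and H3K56A lay at 0.39 ± 0.78 and 0.63 ± 0.67, the second of these from 17 counts in all.

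The early differences were then set against those of days 14, 24, 34 and 44 by a test of the change in the fraction effect. It passed for 208 of 347 strains (59.9%), with 89 (25.6%) higher and 119 (34.3%) lower at days 1 to 3 than at the later days. With TMM factors the split was 105 and 92, and that scaling put the median contrast at 0.05 in place of -0.14. Mean early and late differences had a rho of -0.07 across strains, while day 1 alone had 0.33 and days 2 and 3 had -0.25.

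All 9 strains of H3 residues 1 to 4 passed in 1 direction, early above late, against 25.6% of all strains. The group was drawn for its high early differences, which enter this contrast, so that its direction is no independent result. H3[del 1-4] had late differences of -0.72, -1.50, -2.79 and -2.79, a contrast of 3.53 between the periods (adjusted p = 0.00266). For H3R2A the contrast was 3.58, for H3K4A 3.28 and for H3T3D 3.16 (adjusted p = 0.00312, 0.00396 and 0.00266). H3Q68A had the largest contrast, 3.77 (adjusted p = 0.0072), with an early mean of 0.01 and a late mean of -3.82.

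Most strains at the acetylated lysines of the tails took the opposite course, unlike those at H3K4. Of 27 acetylated lysine substitutions 24 were lower early than late, against 34.3% of all strains, and 1 was higher. A late mean above 0 was found in 24 of 27, against 194 of all 347 strains. H4K16Q and H4K16R had late means of 2.16 and 1.52, contrasts of -2.69 and -2.37 (adjusted p = 0.00424 and 0.00312). H4[del 9-16] (-2.19), H3[del 17-24] (-2.17) and H3K14Q (-2.17) followed. Of the 26 strains higher early, 17 were also early above late and 4 late above early, and of the 21 lower early 20 were late above early. These contrasts share the early libraries with the calls.

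**Figure D5:**
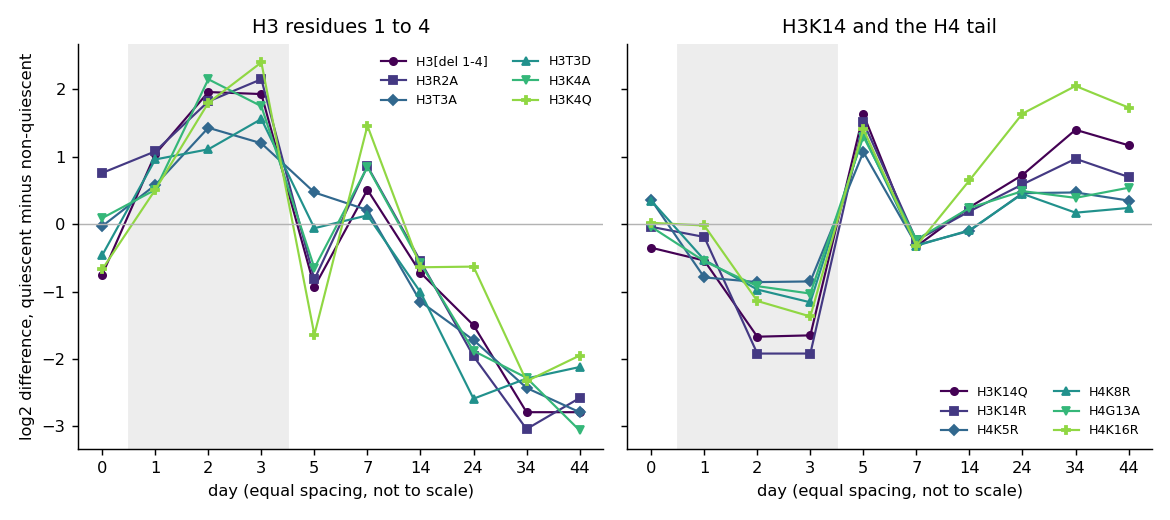
Lines give the log2 difference (quiescent minus non-quiescent) over 10 days, spaced evenly, for 6 strains at H3 residues 1 to 4 on the left and 6 at H3K14 and the H4 tail on the right. Days 1 to 3 are shaded. The left strains lie above 0 there and below 0 from day 14, the right ones mostly the other way, and day 5 breaks both courses.

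Days 5 and 7 served only as a check. Of the 26 higher strains 23 kept their sign at day 7 and 2 at day 5, and of the 21 lower strains 21 kept it at day 7 and 0 at day 5. The same count over all 347 strains is not given here. Their day 7 differences also ran with those of days 1, 2 and 3 (rho = 0.48, 0.31 and 0.31). The counts therefore cannot be read as particular to the strains that passed. At day 0, 14 of the 26 and 12 of the 21 had the sign of days 1 to 3. The wild type had 1251, 1067 and 1183 counts in the quiescent libraries, against 1244, 1395 and 1142 counts in the non-quiescent ones, and a mean of -0.25 ± 0.11 (adjusted p = 0.229).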

How the data were processed

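Barcode counts of 20 libraries (quiescent and non-quiescent fraction of 10 days, 1 library each) were used, with fraction and day taken from the labels. Per the labels and methods the authors amplified up and down barcodes by separate PCR, sequenced them and counted reads per barcode, and the deposited values are raw counts per barcode. A deposited table of log2 values was not used. Up and down counts were summed per strain, with 0.5 in place of 0 for log2 levels. Strains that averaged 10 or more counts were kept.

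The main test was the quasi-likelihood F-test of edgeR 4.0.16 in R 4.3.3 (robust dispersions, model of day and fraction, library sizes that level the median strain, Benjamini-Hochberg over 347 strains, 2 residual degrees of freedom, biological coefficient of variation 0.232). Day pairs the libraries because both fractions came from 1 aliquot. Early and late effects were compared over 14 libraries (days 1 to 3 and 14 to 44) with a fraction by period term (5 residual degrees of freedom, coefficient 0.199). DESeq2 1.42.0, limma 3.58.1, other scalings and filters, single barcodes, other models and leaving out each day were alternatives. Lists of residues were described by counts and medians.

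Named strains were the 10 highest and 10 lowest that passed with 1 sign on all days, both barcodes on 1 side of 0 and at least 60 counts in the 6 libraries, the wild type, strains at H4K16, H4H18, H3E50, H3T11, H3K4, H3K56 and H3K79, the ends of each list, and the 5 largest early against late contrasts in each direction. Other called strains were named after their values were seen. The comparison, the lists and this rule were chosen with earlier results of these data known. Residues are numbered without the initiator methionine, and protein sequences were not used here. Tables and plots were made in Python 3.11.15 (pandas 2.3.3, scipy 1.17.1, numpy 2.4.6, matplotlib 3.10.9).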

Additional observations from a re-analysis of the deposited data

Results flagged for a closer look

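The fraction effect differed between days 1 to 3 and days 14 to 44 in 208 strains by edgeR's test of the difference (adjusted p under 0.05). The 5 largest contrasts with early above late were 3.77 for H3Q68A, 3.58 for H3R2A, 3.53 for H3[del 1-4], 3.28 for H3K4A and 3.16 for H3T3D (log2). Those with late above early were -2.69 for H4K16Q, -2.37 for H4K16R, -2.19 for H4[del 9-16], -2.17 for H3[del 17-24] and -2.17 for H3K14Q.

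Barcode pairs without a strain name, which entered no comparison, carried signal as well. Of 65 such pairs 57 averaged 10 or more counts. Their mean differences of days 1 to 3 had a median of 0.01 and ran from -1.18 to 1.39, with 18 above 0 and 17 below 0 on all 3 days.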

How the results depend on the processing

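The number of strains that passed for days 1 to 3 depended on the setting. It was 47 as reported, 13 with TMM factors, 13 with a mean of at least 50 counts, 20 with the down barcode alone, 3 with all 20 libraries in the fit, 0 with limma (111 at an unadjusted p under 0.05) and 97 with no replicate block, that is without day as the pairing term. With 33 (library totals), 53 (wild type as the reference), 63 (DESeq2, 14 strains without an adjusted p), 51 (no filter) and 45 (up barcode alone) it stayed within 1.5 times. Leaving out each day in turn gave 0 to 201 strains, the 0 without day 2 and the 201 without day 1, each from 1 residual degree of freedom. The 47 strains were all among the 201, and all 13 of the TMM fit were among the 47. None of the 47 changed sign under any of the 14 alternative fits. The cause of these changes was not tested.

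Early against late contrasts passed for 208 strains as reported, 197 with TMM factors, 196 with DESeq2 and 205 with the higher filter, and for 132 to 231 when a day was left out (138 without day 2, 132 without day 3). The 10 named contrasts passed under all 6 of these. Depth limits H3K56A (17 counts), and 10 kept strains had under 10 counts in at least 1 of the 6 libraries.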

Other observations

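Several strains parted in opposite ways at day 1 and at days 2 and 3, values that the mean of 3 days hides. H4[del 1-4] had 108, 188 and 286 counts in the quiescent libraries, against 218, 52 and 70 counts in the non-quiescent ones, and differences of -1.15, 1.88 and 1.73. H4[del 13-20] had 56, 18 and 18 counts in the quiescent libraries, against 11, 25 and 31 counts in the non-quiescent ones, and differences of 2.21, -0.45 and -1.09. H3L60A had the lowest difference of day 1, -2.17, and H3R40A the highest, 2.27, from 48 counts in the quiescent and 9 counts in the non-quiescent library. The highest difference of day 3 was 2.56 for H3G90A, which had -0.90 at day 1. These strains were picked after their values were seen.

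At day 1 the non-quiescent library correlated about as closely with the quiescent library of day 2 (r = 0.957) as with the non-quiescent library of day 2 (r = 0.945), while at days 2 and 3 each fraction correlated with itself (r = 0.982 for quiescent and 0.978 for non-quiescent libraries).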
